A study of Homo sapiens with 18 samples.

Results

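Enzymes that remove superoxide and hydrogen peroxide were followed in NCI-H2347, an established line of human lung cancer cells, through 10 genes. These were CAT, SOD1, SOD2, SOD3, GPX1, GPX3, GPX4, PRDX1 and PRDX3, with UCP2, a mitochondrial carrier that is not itself an enzyme. The members were every array probe annotated to one of these symbols, 17 of the 47323 probes on the array. A probe was kept for testing where it was detected above background on at least 3 of the 18 arrays (detection p-value under 0.01), which held for 15 member probes and 20032 probes in all. The treated cultures were given 50 µM pioglitazone, a PPARγ agonist of the thiazolidinedione class, for 12, 24 or 48 h. The control cultures were given the DMSO vehicle for the same times. Every culture grew in RPMI with 5% fetal bovine serum and was dosed 24 h after plating, and each of the 6 groups had 3 arrays. The model is a single cell line at a single dose, and whether the 3 arrays of a group stand for separate dishes of cells is not stated in the labels. The spread behind every p-value is that between these arrays and may be technical.

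Respiring cells leak superoxide, which superoxide dismutases turn into hydrogen peroxide. Catalase in peroxisomes, glutathione peroxidases and peroxiredoxins then reduce the peroxide, the last of these with electrons from thioredoxin. Several glutathione peroxidases carry selenocysteine at the active site. UCP2 lies in the inner mitochondrial membrane and is known for lowering the production of mitochondrial superoxide in several cell types. In the rat, the catalase gene is known to carry a PPAR response element far upstream of its start.

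Each array detected 17040 to 18880 probes. The background, taken as the median raw signal of undetected probes, was 137.7 to 153.4 on 7 arrays, all those of 24 h and pioglitazone replicate 3 at 48 h, and 101.8 to 113.2 on the other 11. PDK4 and PLIN2, PPAR targets that served as a check of the treatment, were higher with pioglitazone at each time. Their log2 fold changes were 2.50 and 1.89 at 12 h, 2.85 and 2.04 at 24 h, and 3.08 and 2.32 at 48 h. These PLIN2 values are of a single probe. All 3 kept probes of the 2 genes passed at each time, with medians of 1.89, 2.38 and 2.46. On the other PLIN2 probe, ILMN_1801077, the effect grew by 0.68 from 12 to 48 h (limma adjusted p = 0.0344). All 5 epithelial markers (EPCAM, CDH1, KRT8, KRT18 and KRT19) and the lung markers NKX2-1 and NAPSA were detected on 18 of 18 arrays, whereas the surfactant gene SFTPB was detected on none. Of the leukocyte markers PTPRC and CD3E were detected on none and CD14 on 17 arrays, with CD14 passing at no time. Of the endothelial markers PECAM1 and CDH5 were detected on none and VWF on 10 arrays, and VWF was higher with pioglitazone at 24 h (log2 fold change 0.52). Of the fibroblast markers DCN was detected on 2 arrays and COL1A1 on 18, and with pioglitazone COL1A1 was lower at 12 h (log2 fold change -0.85) and higher at 48 h (0.40). COL1A2 probe ILMN_1785272, detected on 18 arrays, passed at no time (-0.22, -0.56 and -0.30 at 12, 24 and 48 h). ILMN_2104356 was detected on 3 vehicle arrays at 24 h and 1 at 48 h, and on 0 pioglitazone arrays at these times. With pioglitazone arrays set no lower than their lowest detected signal, it was at least 1.12-fold lower at 24 h. At 48 h no bound could be given. This probe entered the fit only through vehicle arrays, so its calls at 24 and 48 h are a description. NKX2-1 was lower with pioglitazone on both probes at 12 h (-0.48 and -0.62) and higher on both at 48 h (0.53 and 0.36). The part of these marker shifts in the member results was not tested.

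CAT, SOD2, SOD3 and UCP2 each had a probe that was higher with pioglitazone at 1 or more times. Among the kept member probes those of catalase had the largest fold changes at each time. At 12 h only a CAT probe passed the threshold (limma, Benjamini-Hochberg adjusted p under 0.05 over all kept probes). At 24 h both CAT probes and UCP2 passed, and at 48 h both CAT probes, SOD2, SOD3 and UCP2 passed, all of them higher. SOD1, GPX1, GPX3, GPX4, PRDX1 and PRDX3 passed at none of the 3 times. In counts, 1 of 15 kept member probes passed at 12 h, where 5.82% of all kept probes passed, 3 of 15 at 24 h, where 18.5% passed, and 5 of 15 at 48 h, where 23.6% passed. In the direction the members took, 3.01%, 8.75% and 11.8% of all kept probes were higher at 12, 24 and 48 h. When 1 array was left out, the number of all kept probes called at 12 h ran between 638 (without pioglitazone replicate 1 of 12 h) and 1943 (without pioglitazone replicate 3 of 48 h), against 1165 with every array. At 24 h it ran between 2347 (without vehicle replicate 1 of 24 h) and 5073 (without pioglitazone replicate 3 of 48 h), against 3698. The share of members called at 12 h (6.67%) and at 24 h (20%) was thus near that of all probes called in either direction, and at 48 h it was 33.3%. Set against the upward shares of all kept probes, the share of members was higher at each time, at 12 h through 1 probe. The median log2 fold change of the 15 probes was 0.03, 0.17 and 0.17 at 12, 24 and 48 h, and that of all kept probes was 0.00, -0.01 and 0.02. When the arrays were scaled to the median of all probes in place of quantile normalisation, no member passed at 12 h and only the 2 CAT probes passed at 24 h and at 48 h. That scaling moved the median of all kept probes to 0.11, -0.17 and 0.25 at the 3 times.

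**Figure D1:**
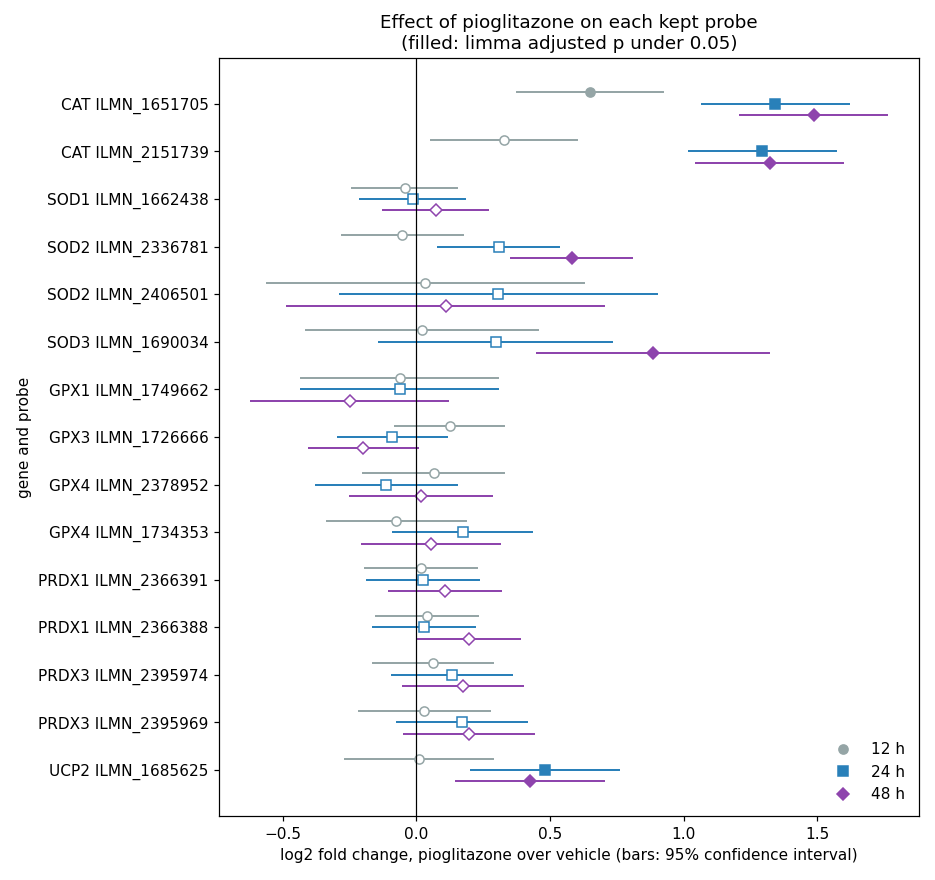
Log2 fold change of pioglitazone over vehicle for each of the 15 kept member probes at 12, 24 and 48 h, with 95% confidence intervals over 3 arrays a group; filled symbols passed the limma threshold. The 2 CAT probes stand to the right at 24 and 48 h. They are followed by SOD3 at 48 h, CAT ILMN_1651705 at 12 h, SOD2 ILMN_2336781 at 48 h and UCP2 at 24 and 48 h. The intervals of most other probes span 0.

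Catalase, the heme enzyme that splits hydrogen peroxide into water and oxygen, was read by 2 probes, both detected on 18 of 18 arrays. On ILMN_1651705 the 12 h log2 signals were 10.71, 10.66 and 10.74 with pioglitazone, against 10.08, 10.17 and 9.91 with vehicle. At 24 h they were 11.62, 11.54 and 11.53 with pioglitazone, against 10.25, 10.06 and 10.36 with vehicle. At 48 h they were 10.91, 10.65 and 11.21 with pioglitazone, against 9.40, 9.54 and 9.36 with vehicle. The pioglitazone arrays lay above the vehicle arrays at each time with no overlap. The log2 fold change was 0.65 ± 0.13 (SE, n = 3 each, adjusted p = 0.00571) at 12 h, 1.34 ± 0.13 (adjusted p = 3.36e-06) at 24 h and 1.49 ± 0.13 (adjusted p = 2.66e-07) at 48 h. These are folds of 1.57, 2.54 and 2.80. Without pioglitazone replicate 3, the 48 h array of higher background, the log2 fold change at 48 h was 1.34 on this probe.

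The second catalase probe, ILMN_2151739, gave 8.85, 8.79 and 8.47 at 12 h with pioglitazone, against 8.35, 8.34 and 8.43 with vehicle. At 24 h it gave 9.24, 9.28 and 9.30 with pioglitazone, against 8.26, 7.87 and 7.80 with vehicle. At 48 h it gave 9.44, 9.53 and 9.62 with pioglitazone, against 8.37, 8.09 and 8.16 with vehicle. Here too no array of one treatment reached into the range of the other, although pioglitazone replicate 3 at 12 h lay just above the highest vehicle array. The log2 fold change of 0.33 ± 0.13 at 12 h did not pass (adjusted p = 0.166), and those of 1.29 ± 0.13 at 24 h (adjusted p = 5.16e-06) and 1.32 ± 0.13 at 48 h (adjusted p = 1.09e-06) did. The probes differed in the order of the groups. On ILMN_1651705 the highest mean was pioglitazone at 24 h (11.56 ± 0.05, SD) and the lowest vehicle at 48 h (9.43 ± 0.09), whereas on ILMN_2151739 the highest was pioglitazone at 48 h (9.53 ± 0.09) and the lowest vehicle at 24 h (7.98 ± 0.25). On both probes the 3 pioglitazone groups ranked above the 3 vehicle groups. In bulk RNA, a change in the share of cells that express a gene and a change in the RNA per cell cannot be told apart.

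**Figure D2:**
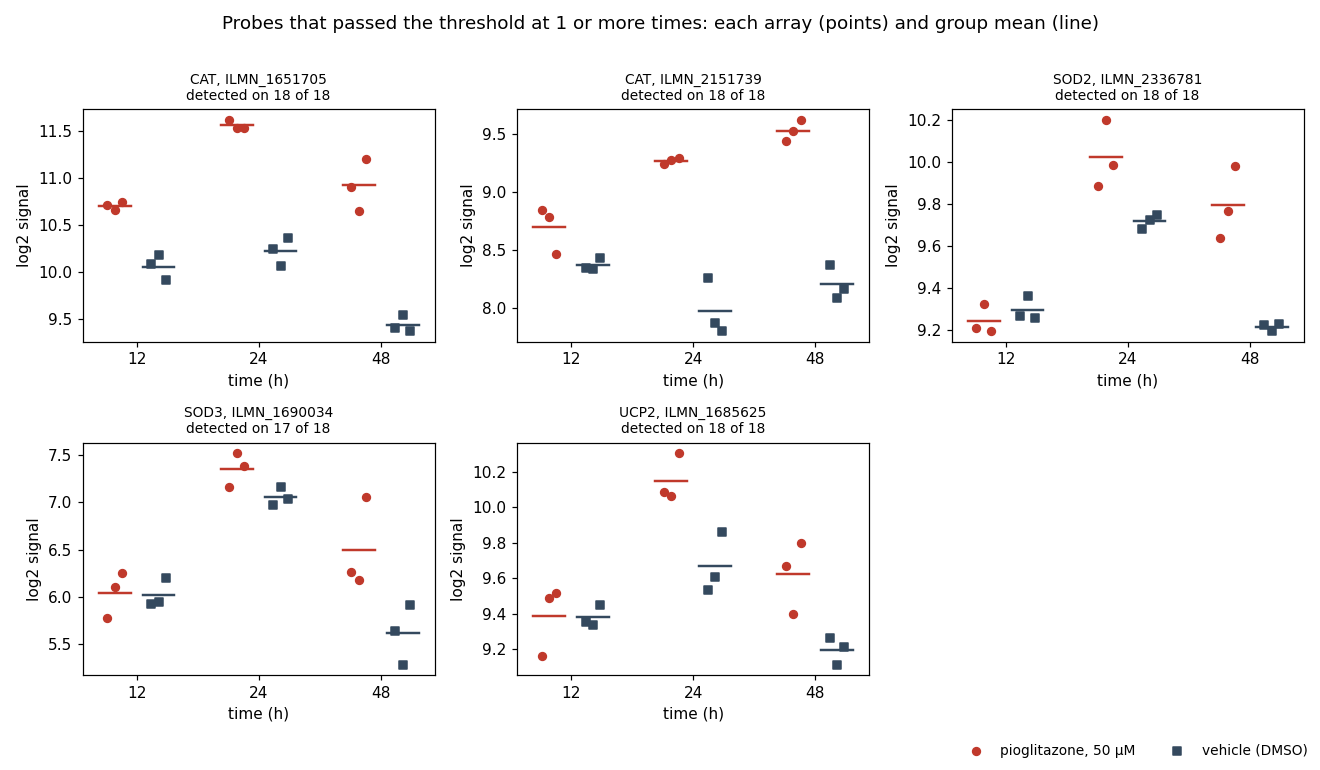
Log2 signal on each array (points) and group mean (lines) at 12, 24 and 48 h for the 5 member probes that passed the threshold at 1 or more times, with pioglitazone to the left of vehicle at each time. The CAT groups are apart at every time, the SOD2 and SOD3 groups are apart at 48 h, and the SOD3 points at 24 h and the pioglitazone replicate 3 point at 48 h stand above the others.

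The promoter windows of the members were searched on both strands for the PPAR direct repeat AGGTCANAGGTCA, for its single repeat unit AGGTCA, which the direct repeat contains, and for the antioxidant response element core TGACNNNGC. The windows hold 250 bases before and 50 after a start site (RefSeq, GRCh38.p14), and 8 of the 10 members had at least 1 such window, 14 windows in all; SOD1 and PRDX1 are named only. Among 35116 promoter windows of all genes, 0.0228% held the direct repeat, 13.8% the repeat unit and 13.4% the antioxidant response element core. Of the member windows, 2 of the 4 of SOD2 and the 1 of SOD3 held a repeat unit. None of the 14 held an exact match to the other motifs, and near matches were not searched for. The CAT window is shown because CAT changed most, and the others because they hold a repeat unit, which is in capitals. The matches are letters in a window, with no measurement of binding.
CAT, chr11:34438684-34438983, plus strand: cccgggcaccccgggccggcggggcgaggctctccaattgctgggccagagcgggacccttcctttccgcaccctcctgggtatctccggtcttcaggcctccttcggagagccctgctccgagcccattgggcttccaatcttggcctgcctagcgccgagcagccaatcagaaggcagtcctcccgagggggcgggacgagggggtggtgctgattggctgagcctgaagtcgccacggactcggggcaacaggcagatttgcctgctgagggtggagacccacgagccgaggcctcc
SOD2, chr6:159726901-159727200, minus strand: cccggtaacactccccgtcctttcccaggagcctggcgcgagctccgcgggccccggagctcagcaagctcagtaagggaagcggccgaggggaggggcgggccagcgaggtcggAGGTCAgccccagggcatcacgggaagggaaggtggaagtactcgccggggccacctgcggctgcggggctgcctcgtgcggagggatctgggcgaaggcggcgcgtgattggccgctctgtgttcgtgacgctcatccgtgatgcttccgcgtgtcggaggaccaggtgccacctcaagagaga
SOD2, chr6:159762232-159762531, minus strand: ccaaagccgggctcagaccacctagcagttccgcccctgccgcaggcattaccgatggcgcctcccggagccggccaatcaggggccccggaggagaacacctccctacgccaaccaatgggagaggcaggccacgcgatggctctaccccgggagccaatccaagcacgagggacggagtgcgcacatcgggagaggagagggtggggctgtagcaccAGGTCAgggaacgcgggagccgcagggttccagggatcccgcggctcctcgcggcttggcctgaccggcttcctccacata
SOD3, chr4:24795323-24795622, plus strand: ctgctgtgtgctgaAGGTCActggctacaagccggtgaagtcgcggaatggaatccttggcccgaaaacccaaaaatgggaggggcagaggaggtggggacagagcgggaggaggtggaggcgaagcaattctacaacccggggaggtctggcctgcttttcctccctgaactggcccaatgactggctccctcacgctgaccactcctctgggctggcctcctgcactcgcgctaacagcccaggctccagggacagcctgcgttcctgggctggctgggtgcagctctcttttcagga
In these windows the repeat unit began at position -135 and at position -31 of the 2 SOD2 starts and at position -236 of the SOD3 start.

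Among the superoxide dismutases, the extracellular enzyme and the mitochondrial one, on probe ILMN_2336781 only, were higher with pioglitazone than with vehicle at 48 h. The cytosolic one passed at no time. SOD2, the manganese enzyme of the mitochondrial matrix, had 3 probes. On ILMN_2336781 the 48 h log2 signals were 9.64, 9.76 and 9.98 with pioglitazone, against 9.22, 9.19 and 9.22 with vehicle. At 24 h they were 9.89, 10.20 and 9.99 with pioglitazone, against 9.68, 9.73 and 9.75 with vehicle. The groups were apart at both times, but at 12 h the values of 9.21, 9.32 and 9.19 with pioglitazone overlapped the 9.27, 9.36 and 9.26 with vehicle. The log2 fold change was -0.05 ± 0.11 at 12 h (SE, adjusted p = 0.860), 0.31 ± 0.11 at 24 h (adjusted p = 0.0551) and 0.58 ± 0.11 at 48 h (adjusted p = 0.00079). Without pioglitazone replicate 3 the value at 48 h was 0.49. The 24 h value passed in 9 of 29 other settings of the processing, with adjusted p-values between 0.00283 and 0.916. ILMN_2406501, annotated to another SOD2 transcript, had log2 fold changes of 0.03, 0.31 and 0.11 with standard errors of 0.28 and passed at no time. Its pioglitazone arrays at 48 h spread over 7.10, 7.74 and 6.16, a range that took in the vehicle values of 6.95, 6.71 and 7.02. The third SOD2 probe, ILMN_1792922, was detected on 0 of 18 arrays and was not tested.

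SOD3, the secreted copper and zinc enzyme, was close to background, with raw signals of 120.3 to 391.6, and was detected on 17 arrays. At 48 h its log2 signals were 6.26, 6.18 and 7.06 with pioglitazone, against 5.64, 5.29 and 5.92 with vehicle. These groups did not overlap, and pioglitazone replicate 3 lay well above the other arrays. At 24 h the values were 7.16, 7.52 and 7.38 with pioglitazone, against 6.97, 7.16 and 7.03 with vehicle. At 12 h they were 5.78, 6.10 and 6.25 with pioglitazone, against 5.93, 5.95 and 6.20 with vehicle. The groups overlapped at both of these times. The log2 fold change was 0.02 ± 0.21 at 12 h (SE, adjusted p = 0.978), 0.30 ± 0.21 at 24 h (adjusted p = 0.348) and 0.89 ± 0.21 at 48 h (adjusted p = 0.00473). All 7 arrays of higher background held the 7 highest SOD3 signals, 6.97 to 7.52, against 5.29 to 6.26 on the other 11. Without pioglitazone replicate 3, which leaves 48 h arrays of lower background only, the value was 0.59 (adjusted p = 0.0203), and without background correction it was 0.36 (adjusted p = 0.0112). Over all settings the adjusted p-value ran between 0.00187 and 0.105, and the call was lost with scaling to the median of all probes and in a fit of the 2 groups alone (adjusted p = 0.0759).

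**Figure D3:**
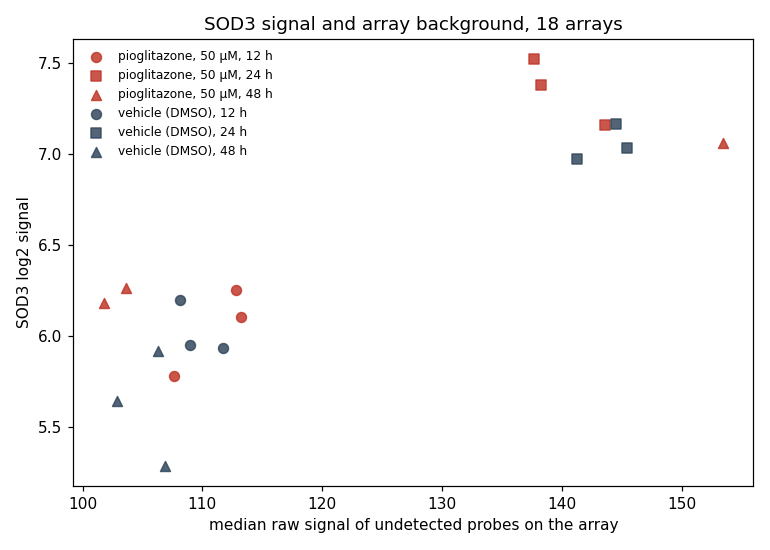
SOD3 log2 signal (vertical axis) against the median raw signal of undetected probes on the same array (horizontal axis) for the 18 arrays, with pioglitazone in red, vehicle in dark blue and the 3 times as symbols. The 7 arrays with a background of 137.7 to 153.4 hold SOD3 signals of 6.97 to 7.52, and the other 11 hold 5.29 to 6.26.

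SOD1, the copper and zinc enzyme of the cytosol, had log2 signals of 13.10, 13.00 and 13.12 with pioglitazone, against 13.11, 13.19 and 13.05 with vehicle, at 12 h. At 48 h they were 12.84, 12.79 and 13.02 with pioglitazone, against 12.81, 12.80 and 12.81 with vehicle. The groups overlapped at all 3 times. The log2 fold change was -0.04, -0.01 and 0.07 at 12, 24 and 48 h, and the 95% confidence intervals lay between -0.24 and 0.27.

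UCP2 was read by 1 probe, detected on 18 of 18 arrays. Its 12 h log2 signals were 9.16, 9.49 and 9.51 with pioglitazone, against 9.35, 9.34 and 9.45 with vehicle. At 24 h they were 10.08, 10.06 and 10.30 with pioglitazone, against 9.53, 9.61 and 9.86 with vehicle. At 48 h they were 9.67, 9.40 and 9.80 with pioglitazone, against 9.26, 9.12 and 9.21 with vehicle. The groups overlapped at 12 h and were apart at 24 and 48 h. The log2 fold change was 0.01 ± 0.13 (SE, adjusted p = 0.986), 0.48 ± 0.13 (adjusted p = 0.0164) and 0.42 ± 0.13 (adjusted p = 0.0258) at the 3 times. The 24 h call was lost without pioglitazone replicate 3 (0.40), vehicle replicate 1 (0.42) or vehicle replicate 2 (0.45), and adjusted p-values over all settings were 0.000123 to 0.710. The 48 h call was lost without pioglitazone replicate 1 (0.40) or 3 (0.34), without vehicle replicate 2 (0.38) or 3 (0.43), and in a fit of the 2 groups alone, with adjusted p-values over all settings of 0.00894 to 0.193. The related carriers UCP1, UCP3, SLC25A14 and SLC25A27 gave no comparison, since 3 of these genes had 5 probes on the array and 0 were kept.

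None of the glutathione peroxidases passed the threshold. GPX1, the general cytosolic selenoenzyme, had 48 h log2 signals of 13.01, 12.84 and 12.40 with pioglitazone, against 13.07, 12.92 and 13.01 with vehicle. The groups overlapped, with pioglitazone replicate 3 the lowest array, and the 48 h log2 fold change was -0.25 ± 0.17 (SE, adjusted p = 0.331). Its values at 12 and 24 h were both -0.06, and a second GPX1 probe, ILMN_1787412, was detected on 2 of 18 arrays and was not tested. GPX3, the secreted plasma form, had 48 h log2 signals of 11.00, 10.93 and 10.78 with pioglitazone, against 11.12, 11.08 and 11.10 with vehicle. All 3 pioglitazone arrays lay below the vehicle arrays, yet the log2 fold change of -0.20 ± 0.10 did not pass (adjusted p = 0.151). At 12 h the GPX3 arrays did not overlap in the opposite direction, with 10.90, 10.98 and 10.92 with pioglitazone against 10.80, 10.87 and 10.76 with vehicle and a log2 fold change of 0.13 (adjusted p = 0.540). GPX4, which reduces lipid hydroperoxides in membranes and protects against ferroptosis, had 2 probes, with raw signals of 12383 to 23903 on ILMN_2378952 and 9081 to 19538 on ILMN_1734353. Their log2 fold changes were 0.07 and -0.07 at 12 h, -0.11 and 0.17 at 24 h, and 0.02 and 0.05 at 48 h, with ILMN_2378952 given first. The groups overlapped on both probes at every time, and the confidence intervals lay between -0.38 and 0.43.

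The peroxiredoxins, thiol peroxidases of the cytosol (PRDX1) and of mitochondria (PRDX3), likewise passed at no time. PRDX1 probe ILMN_2366388 had 48 h log2 signals of 13.02, 13.10 and 13.14 with pioglitazone, against 12.87, 12.91 and 12.90 with vehicle. These arrays did not overlap, but the log2 fold change of 0.20 ± 0.09 (SE) missed the threshold (adjusted p = 0.129). On the other PRDX1 probe, ILMN_2366391, the groups overlapped at 48 h and the value was 0.11 ± 0.10. At 12 and 24 h the PRDX1 values were between 0.02 and 0.04 on both probes. PRDX3 probe ILMN_2395974 had 24 h log2 signals of 12.09, 12.10 and 12.11 with pioglitazone, against 11.98, 11.98 and 11.93 with vehicle. ILMN_2395969 had 11.95, 11.87 and 11.93 with pioglitazone, against 11.82, 11.58 and 11.83 with vehicle. Neither PRDX3 probe overlapped between groups at 24 h, and both overlapped at 12 and 48 h. Their log2 fold changes were 0.13 and 0.17 at 24 h and 0.17 and 0.20 at 48 h, with adjusted p-values of 0.236 to 0.426. Over all members, the arrays of the 2 treatments did not overlap on 3 of 15 probes at 12 h, 6 of 15 at 24 h and 7 of 15 at 48 h, where 29.3%, 40.5% and 33.1% of all kept probes did not.

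**Figure D4:**
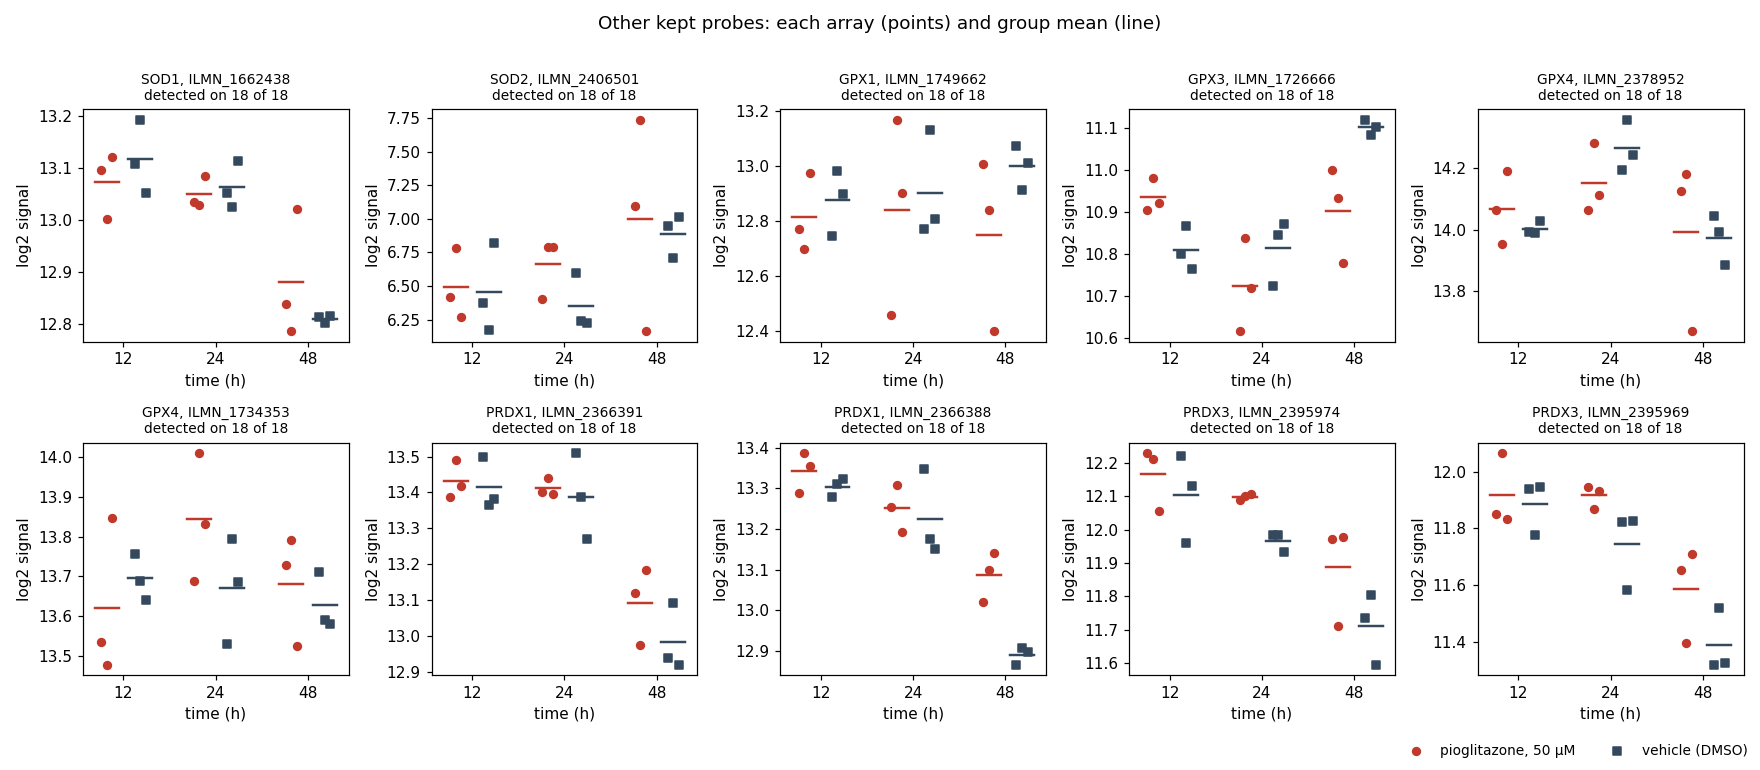
Log2 signal on each array (points) and group mean (lines) at 12, 24 and 48 h for the 10 kept member probes that passed the threshold at no time, with pioglitazone to the left of vehicle; each panel has its own vertical scale. GPX3 at 48 h has all pioglitazone points below the vehicle points, PRDX1 ILMN_2366388 at 48 h has them above, and the SOD1, PRDX1 and PRDX3 points are lower at 48 h than at 12 h in vehicle cultures.

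The effect of pioglitazone was compared between times in the same limma model, although all 24 h arrays had the higher background. Between 12 and 24 h it grew on 1 of 15 member probes, CAT ILMN_2151739, by 0.97 ± 0.18 on the log2 scale (SE, adjusted p = 0.0323), where 0.295% of all kept probes changed and 0.185% did so upward. The 59 probes behind that share became 21 without pioglitazone replicate 1 of 12 h and 302 without pioglitazone replicate 3 of 48 h. That call was lost without any 1 of the 12 h arrays, without pioglitazone replicate 2 or 3 of 24 h and without vehicle replicate 2 or 3 of 24 h, with values of 0.85 to 1.04. Its adjusted p-value over all settings ran between 0.00134 and 0.734. The other CAT probe gave 0.69 ± 0.18 (adjusted p = 0.114). Between 12 and 48 h it grew on 3 of 15, where 6.32% of all kept probes changed and 2.74% did so upward (1266 probes, and 823 without pioglitazone replicate 1 of 12 h). NKX2-1 moved alongside over the same interval, by 1.00 and 0.98 on its 2 probes. From 12 to 24 h its probe ILMN_1728117 changed by 0.72 (limma adjusted p = 0.0439), and its other probe did not pass. The part of NKX2-1 in the member results was not tested. The 3 member probes were CAT ILMN_2151739 by 0.99 ± 0.18 (adjusted p = 0.00317), CAT ILMN_1651705 by 0.84 ± 0.18 (adjusted p = 0.0106) and SOD2 ILMN_2336781 by 0.63 ± 0.15 (adjusted p = 0.0183). The CAT probes differed in the groups that moved. On ILMN_1651705 the vehicle mean fell from 10.05 at 12 h to 9.43 at 48 h, and the pioglitazone mean went from 10.70 to 10.92. On ILMN_2151739 the pioglitazone mean rose from 8.70 to 9.53, and the vehicle mean went from 8.37 to 8.21. Without vehicle replicate 2 at 12 h the SOD2 value was 0.60 (adjusted p = 0.0502), and over its alternatives the adjusted p-value ran between 0.00492 and 0.974. SOD3 gave 0.87 ± 0.29 (adjusted p = 0.0920) and UCP2 0.42 ± 0.19 (adjusted p = 0.219). Between 24 and 48 h the limma fit called 0 of 15 members, where 2.08% of all kept probes changed (416 probes, and 265 without pioglitazone replicate 3 of 24 h or 750 without pioglitazone replicate 2 of 48 h), and 0 of them had an unadjusted p under 0.05.

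In vehicle cultures several members were lower at 48 h than at 12 h. The probes called were CAT ILMN_1651705 (-0.62 ± 0.13, SE), SOD1 (-0.31 ± 0.09), both PRDX1 probes (-0.43 ± 0.10 and -0.41 ± 0.09) and both PRDX3 probes (-0.39 ± 0.11 and -0.50 ± 0.12), with adjusted p-values between 0.00264 and 0.0244. GPX3 was higher, at 11.12, 11.08 and 11.10 at 48 h against 10.80, 10.87 and 10.76 at 12 h, by 0.29 ± 0.10 (adjusted p = 0.0382). On the second CAT probe the value of -0.17 ± 0.13 did not pass (adjusted p = 0.393). The calls made 7 of 15 probes, where 22.2% of all kept probes passed. The SOD1 call was lost without vehicle replicate 1 or 2 of 12 h or any 48 h vehicle array (-0.31 to -0.27). The GPX3 call was lost without any vehicle array of 12 or 48 h or pioglitazone replicate 3 of 24 h (0.27 to 0.32), and the PRDX3 ILMN_2395974 call without vehicle replicate 1 of 12 h or 3 of 48 h (-0.33 each). At 24 h against 12 h in vehicle cultures SOD3 (1.03 ± 0.21) and SOD2 ILMN_2336781 (0.42 ± 0.11) were higher and CAT ILMN_2151739 (-0.40 ± 0.13) was lower. The other CAT probe had the opposite sign there, 0.17 ± 0.13, and did not pass (adjusted p = 0.340). Those were 3 of 15, where 32% of all kept probes passed. All 24 h arrays had the higher background, so time and background cannot be told apart there. Without background correction the SOD3 value was 0.49. The CAT call was lost without any vehicle array of 12 h and without vehicle replicate 2 or 3 of 24 h (-0.41 to -0.31). With scaling to the median of all probes the CAT value changed sign, to 0.25, where the median of all kept probes moved to 0.48. The comparisons of vehicle over time and of pioglitazone with vehicle share the vehicle arrays.

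For the 4 genes with a called probe, the genes of most similar course were those with the smallest root mean square difference between the 6 group means, each gene centred on its own mean, among 11679 other genes with a kept probe. Only the brightest kept probe of a gene was used, ILMN_1651705 for CAT, and the second CAT probe did not enter. Nearest to CAT on that probe were PEG10, PAG1 and TNFSF9, at 0.073, 0.12 and 0.12 on the log2 scale. Nearest to UCP2 were APOC1, ZDHHC8BP and ANKRD13C-DT, at 0.045, 0.047 and 0.054. Nearest to SOD2 were APPL2, IAH1 and TCIM, at 0.029, 0.034 and 0.042. SOD3 had no neighbour as close, the nearest being ABCB8, TANC1 and CDK18 at 0.15 each. These are descriptions over 6 means that share their arrays, and the 7 arrays of higher background enter all of them.

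Among other enzymes of peroxide removal and their repair factors, 9 of 12 listed genes had kept probes, 11 in all. Of these 4 were higher and 0 lower at 12 h, 4 and 0 at 24 h, and 4 and 2 at 48 h, with medians of 0.48, 0.39 and 0.20. That is 36.4%, 36.4% and 54.5% of the list called, where 5.82%, 18.5% and 23.6% of all kept probes were. SRXN1, sulfiredoxin, which repairs overoxidised peroxiredoxins, was higher by a log2 fold change of 0.87 at 12 h (adjusted p = 0.00162), 0.71 at 24 h and 0.81 at 48 h. SESN1, a sestrin of the stress response, was higher by 0.72, 0.87 and 0.48 at the 3 times. SESN2, another sestrin, was higher by 0.88 at 12 h, and its values of -0.07 and 0.26 at 24 and 48 h did not pass. At 48 h GPX8 (-0.56 on 1 of 2 probes) and PRDX4 (-0.37), peroxidases of the endoplasmic reticulum, were lower.

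The thioredoxin and glutathione reducing systems, which feed peroxiredoxins and glutathione peroxidases, had 13 kept probes of 8 genes. Of these 0 passed at 12 h, 1 was higher and 1 lower at 24 h, and 6 were higher and 0 lower at 48 h, with a median of 0.33 at 48 h. The share called was 15.4% at 24 h, near the 18.5% of all kept probes, and 46.2% at 48 h, where it was 23.6%. The limma test at 12 h gave 1 of the 13 an unadjusted p under 0.05. TXNRD1, cytosolic thioredoxin reductase, was higher by log2 fold changes of 1.13 and 1.03 on its 2 probes at 48 h, GSR, glutathione reductase, by 0.49 on 1 of 2 probes, and TXN, thioredoxin, by 0.43 and 0.39. GLRX, glutaredoxin, was lower at 24 h (-0.37, adjusted p = 0.0435). The genes of selenoprotein synthesis, on which the glutathione peroxidases depend, had 7 kept probes of 5 genes. Here 0 were higher and 1 lower at 12 h, 2 and 2 at 24 h, and 1 and 1 at 48 h. The list's shares called of 14.3%, 57.1% and 28.6% rest on 7 probes, and that at 48 h was near the 23.6% of all kept probes. SEPHS2, which makes the selenium donor, was lower, with log2 fold changes of -0.48 at 24 h and -0.56 at 48 h, SEPSECS was lower at 24 h (-0.49), and SECISBP2, the protein that binds the selenocysteine insertion element, was higher at 24 h (0.37) and 48 h (0.30).

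Enzymes that make superoxide or peroxide had 16 kept probes of 11 among 22 listed genes. Of these 4 were higher and 0 lower at 12 h, 7 and 1 at 24 h, and 2 and 2 at 48 h, with medians of 0.16, 0.15 and 0.05. The 4 probes at 12 h belonged to 2 genes, the polyamine oxidases SMOX (3 probes) and PAOX. The shares called were 25%, 50% and 25%, where those of all kept probes were 5.82%, 18.5% and 23.6%, so that at 48 h was near the share of all probes. AOX1, aldehyde oxidase, was detected on 3 of 3 pioglitazone arrays and on no vehicle array at 24 and 48 h, and was at least 1.64-fold higher at 24 h and at least 1.27-fold higher at 48 h. For these bounds each vehicle array was set at the lowest signal among its detected probes, or at its own signal where that was higher. XDH, xanthine dehydrogenase, was detected on 3 of 3 pioglitazone arrays and no vehicle array at 24 h, and was at least 1.45-fold higher there. These 2 genes entered the fit only through the pioglitazone arrays that detected them (6 arrays for AOX1 and 4 for XDH), so their calls, 2 of the 7 higher at 24 h and 1 of the 2 at 48 h, are given as a description. MAOB, an amine oxidase of the outer mitochondrial membrane, was higher by log2 fold changes of 0.71 at 24 h and 1.00 at 48 h. DUOX1, a dual oxidase that makes peroxide at the cell surface, was lower, with log2 fold changes of -0.55 at 24 h and -0.59 at 48 h. Every count of these lists was read in the same fit over 20032 probes.

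**Figure D5:**
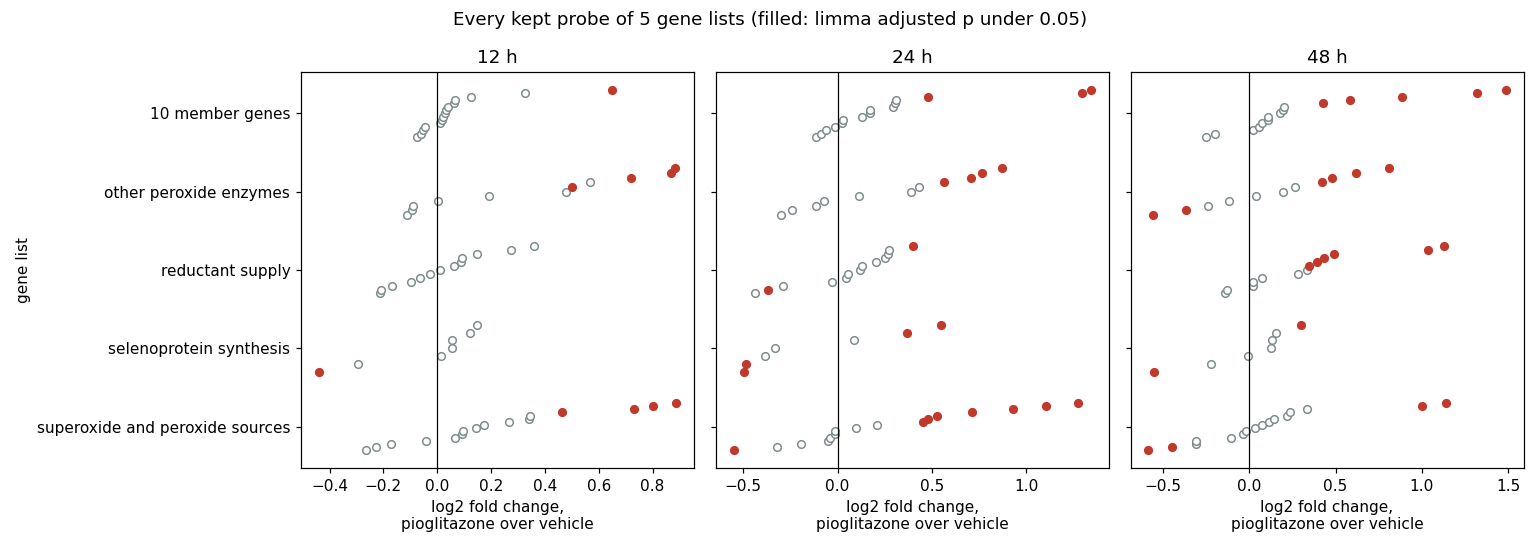
Log2 fold change of pioglitazone over vehicle at 12, 24 and 48 h for every kept probe of the 10 member genes and of 4 related gene lists; filled points passed the limma threshold and probes are stacked by value within a list. The reductant supply list has 0 filled points at 12 h and 6 at 48 h, and the list of sources has filled points on both sides of 0 at 24 and 48 h.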

How the data were processed

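RNA of 18 samples was hybridised to 1-colour Illumina HumanHT-12 v4 arrays. For 47323 probes the authors deposited raw intensities, from GenomeStudio per the submitters' processing notes, with neither background correction nor normalisation between arrays. Each intensity has a deposited detection p-value, in steps of 1 in 770. A second table deposited by the authors holds processed intensities, used as an alternative. Their settings and any genome build were not given in the sources used here.

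The function neqc of limma 3.58.1, under R 4.3.3, corrected the deposited intensities (offset 16), quantile-normalised them and gave log2 values, so a fold change understates that of a dim probe. Probes were named from GEO's platform annotation, which gave 30113 probes 1 symbol, 8 several and 17202 none. The 20032 probes with a detection p-value under 0.01 on at least 3 arrays entered 1 limma fit of 6 group means (12 residual degrees of freedom), with Benjamini-Hochberg adjustment over all of them and a threshold of 0.05. Values are group means with SD, or log2 fold changes with SE. The median SE of a kept member probe was 0.12. Precision is limited by 3 arrays a group. The fit was tested on simulated data.

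All 10 members, every probe of each, PDK4, PLIN2 and the markers are named, with up to 3 genes a direction from each list by size of change; other names were chosen after their values were seen. The members and lists were chosen with earlier results of these data known. Replicate numbers gave no evident pairing of the samples: correlations of same-numbered arrays' deviations from group means ran between -0.23 and 0.06. With 3 arrays a group, such correlations cannot exclude a pairing. No arrays were identical. The alternatives changed the background correction, the normalisation, the source of the values, the filter, the probe per gene, array weights, a replicate block, the groups in the fit and each array in turn.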

Additional observations from a re-analysis of the deposited data

Results flagged for a closer look

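The effect of pioglitazone on 3 member probes differed between times by the limma test of the difference itself (adjusted p under 0.05). On CAT ILMN_2151739 the log2 fold change was larger by 0.967 at 24 h than at 12 h and larger by 0.9945 at 48 h than at 12 h. On CAT ILMN_1651705 it was larger by 0.8368 at 48 h than at 12 h, and on SOD2 ILMN_2336781 by 0.6335. All arrays of 24 h had the higher background, so time and background cannot be told apart in the comparison of 24 with 12 h. The CAT ILMN_2151739 result from 12 to 24 h passed in 16 of 27 other settings. The comparison of 48 with 12 h holds the 48 h array of higher background, pioglitazone replicate 3, on the side of 48 h. Without it the differences between 12 and 48 h were 0.95, 0.69 and 0.54 for the 3 probes in the order above, each still past the threshold.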

How the results depend on the processing

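Of 120 member results (probe and comparison), 23 passed the threshold, and 6 of these passed in every one of 29 other settings that could be applied to them. Those were the CAT calls at 24 and 48 h on both probes and the vehicle calls of SOD2 ILMN_2336781 and SOD3 at 24 h against 12 h. In these vehicle calls time and background cannot be told apart in any setting, because all 24 h arrays had the higher background. Scaling to the median of all probes left 0, 2 and 2 members called at 12, 24 and 48 h, 0, 0 and 0 for the changes from 12 to 24, 24 to 48 and 12 to 48 h, and 0 for vehicle at 48 h, against 1, 3, 5, 1, 0, 3 and 7 with quantile normalisation. It reversed CAT ILMN_2151739 in vehicle at 24 h against 12 h (0.25, against -0.40), and SOD2 ILMN_2336781 there moved to 1.01, where the median of all kept probes moved to 0.48. Of all kept probes called at 12, 24 and 48 h it made 85.3%, 27.7% and 64% higher, against 51.8%, 47.4% and 49.8%, and the number called fell to 34, 775 and 816, against 1165, 3698 and 4724. Median scaling on the probes detected on all arrays gave 57.7% higher at 24 h, and called 8 members in vehicle at 24 h and 4 in vehicle at 48 h, against 3 and 7. Array weights called 2, 6 and 5 members at the 3 times, 3 and 4 for the changes from 12 to 24 h and 12 to 48 h and 5 in vehicle at 24 h, with 3046, 9064 and 4610 of all kept probes at the 3 times. A fit of the 2 groups alone called 3 members at 48 h and 1791 of all kept probes. For the change from 12 to 24 h, no background correction called 2 members and 1 probe per gene called 0. Leaving out 1 array gave 1 to 1, 2 to 4 and 4 to 5 members at the 3 times, 0 to 2, 0 to 0 and 2 to 4 for the 3 changes, and 2 to 4 and 4 to 7 for vehicle at 24 and 48 h. The replicate block gave 1, 3 and 5 members at the 3 times and 1, 0 and 3 for the changes. By the labels, the samples of a block share only a number. Among results called in no setting, 52 changed sign in at least 1. The cause of these moves was not tested. SOD3 near background and 3 arrays a group limit the depth.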

Other observations

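The effect of pioglitazone on polyamine oxidases, which release hydrogen peroxide, changed from 12 to 48 h in the opposite sense to that on catalase. This pair was chosen after the values were seen. SMOX, spermine oxidase, was higher with pioglitazone at 12 h on all 3 of its kept probes, by log2 fold changes of 0.73, 0.80 and 0.89 (limma adjusted p of 0.00514 to 0.00822). At 48 h the values on the same probes were -0.31, -0.04 and -0.11, and none passed. The change from 12 to 48 h passed on each, at -1.04, -0.84 and -0.99. PAOX, acetylpolyamine oxidase, was higher at 12 h by 0.46 (adjusted p = 0.0365), with group means of 6.46 with pioglitazone and 6.00 with vehicle. At 48 h it was lower, at -0.45 (adjusted p = 0.0140), with 6.34 with pioglitazone and 6.79 with vehicle, and the change was -0.91 (adjusted p = 0.00442). Between these times the PAOX vehicle mean moved more than the pioglitazone mean. SMOX and PAOX were not refitted without pioglitazone replicate 3 of 48 h, the array of higher background.

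GPX7, a peroxidase of the endoplasmic reticulum chosen after its values were seen, was higher at 48 h by 0.62 (adjusted p = 0.00134), and its change from 12 to 48 h was 0.71 (adjusted p = 0.0197). TXNRD1 probe ILMN_1717056 changed by 0.64 from 24 to 48 h (adjusted p = 0.0304).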
